A study of Mus musculus with 12 samples.

Results

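The genes described here are the protein-coding mouse genes of 7 families that write, remove or read histone marks or that move nucleosomes, counted in donor-derived Lin−Sca+Kit+ bone marrow (BM) cells with and without BCR::ABL1. They were chosen by symbol alone: Kmt2a to Kmt2e, and every gene whose symbol opens with Kdm, Hdac, Setd, Brd or Chd and a digit or with Smarc, without the 3 sex-linked lysine demethylases Kdm5c, Kdm5d and Kdm6a. The rule gave 70 genes of the 56748 counted: 5 Kmt2, 15 Kdm, 11 Hdac, 8 Setd, 8 Brd, 10 Chd and 13 Smarc genes. Brd3os came in by its symbol, although it is named as the opposite-strand neighbour of Brd3 and not as a bromodomain protein.

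Bulk RNA-seq was made from 12 libraries, 6 BCR::ABL1+ (labelled CML 2wk) and 6 BCR::ABL1− (labelled CTRL). All cells carried both transgenes of the SCLtTA/BCR-ABL double transgenic (DTG) model, in which the SCL promoter drives the tetracycline transactivator in haemopoietic stem and progenitor cells and tetracycline (TET) in the drinking water keeps human BCR::ABL1 off. CD45.2 DTG BM cells, thawed from a pool of many donor mice of both sexes, were given to CD45.1 B6.SJL recipients aged 8 to 12 weeks after 2 doses of 4.25 Gy, and CD45.2+Lin−Sca+Kit+ cells were sorted from the recipients, so libraries are not independent donors. BCR::ABL1− recipients stayed on TET (0 weeks without it) and BCR::ABL1+ recipients were without TET for 2 weeks. The labels give every BCR::ABL1− library as male and every BCR::ABL1+ library as female, while the series text speaks of recipients of both sexes. Labelled sex and BCR::ABL1 therefore cannot be told apart. The counted cells came from the donor pool of both sexes, and the sex of the cells themselves was not examined here. The run of library numbers in the deposited names nearly coincides with the groups: replicates 1 to 5 of each group form a run of their own, and replicate 6 of both groups shares another, so that 1 library of each group can be compared within a run.

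DNA in the nucleus is wound on histones, and enzymes add or remove methyl and acetyl groups on the histone tails. Kmt2 and Setd proteins are mainly lysine methyltransferases and Kdm proteins demethylases, Hdac proteins remove acetyl groups, and Brd proteins bind acetylated histones through a bromodomain. Chd and Smarc proteins include the ATPases and accessory subunits of the remodeling complexes SWI/SNF (BAF), ISWI and NuRD, and several members, Kmt2a, Kdm1a, Chd4 and Smarca4 among them, are known for roles in blood stem cells and in leukaemia.

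The BCR::ABL1− libraries held 22804754 to 41832868 counts each, the BCR::ABL1+ libraries 16150817 to 25070105. The 70 genes together took 1.17 to 1.25% of all counts in BCR::ABL1− and 0.669 to 0.864% in BCR::ABL1+, while mitochondrial genes took 0.816 to 1.29% and 2.26 to 2.97%. In bulk RNA, fewer cells that express a gene and less RNA per cell cannot be told apart. BCR::ABL1− libraries varied less among themselves (biological coefficient of variation over all genes 10.9%) than BCR::ABL1+ libraries (32.6%, or 24.6% without replicate 2, which stood apart). Levels are given as CPM, that is counts relative to library size scaled with TMM factors, and a log2 fold change is BCR::ABL1+ relative to BCR::ABL1−. Among the sorting markers Kit ran from 681 to 800.0 CPM in BCR::ABL1− and from 323 to 522 CPM in BCR::ABL1+, while Ly6a, which encodes Sca-1, ran from 27.2 to 38.3 CPM in BCR::ABL1− and from 31.4 to 74.1 CPM in BCR::ABL1+ and was not called.

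Most of the chromatin genes were lower in BCR::ABL1+ cells. Of the 69 that passed the filter on low counts, 52 fell and 4 rose at an edgeR adjusted p under 0.05, and 13 were not called. Over all 18438 genes tested, 29% were called lower and 30.6% higher (59.5% either way), and among the protein-coding genes tested 38.5% were called lower, beside 75.4% of the members. The median log2 fold change of the members was −0.56, beside 0.07 for all genes tested and −0.11 for protein-coding genes. In 48 members every BCR::ABL1+ library was below every BCR::ABL1− library (20.6% of all genes tested), and in 2 every one was above (17%). Of 13066 protein-coding genes tested, 3636 were below and 2300 above in this way. A fall of over 1.5-fold was called in 34 members, or 49.3%, against 15.5% of all genes tested. A fall of over 2-fold was called in 9 of the 69 members. Such a fall was called in 1066 of all 18438 genes tested and in 939 of the 13066 protein-coding ones.

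**Figure D1:**
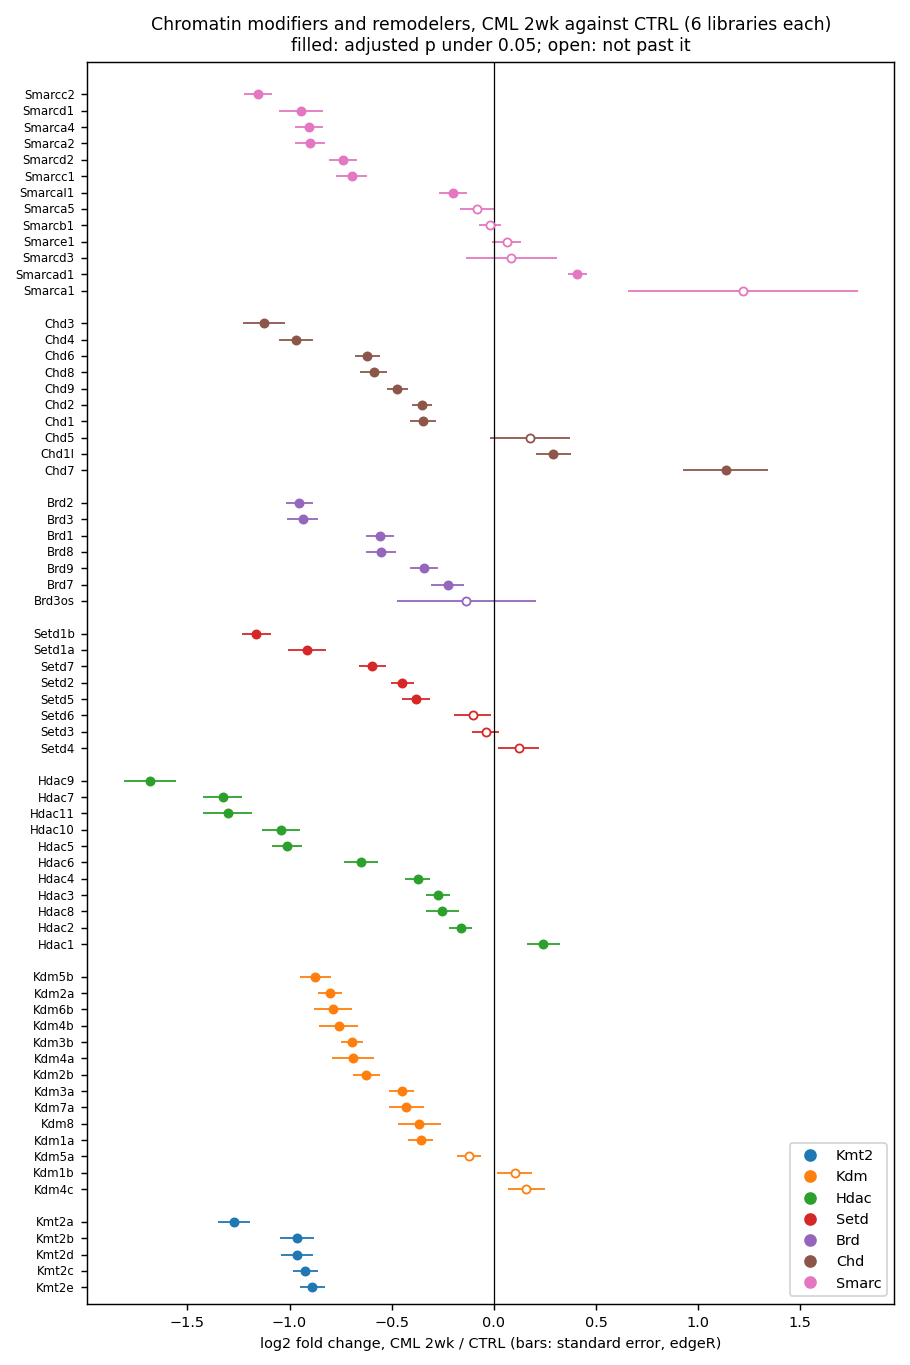
Log2 fold change of 68 of the 69 tested members (x axis, BCR::ABL1+ relative to BCR::ABL1−, 6 libraries each), by family, with edgeR standard errors as bars; filled points passed an adjusted p under 0.05 and open points did not. The 5 Kmt2 genes lie between −1.27 and −0.89, while the Smarc genes spread from −1.16 to 1.22.

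All 5 Kmt2 genes fell, and their median log2 fold change of −0.96 was the lowest of the families. With the trend over transcript length and GC content removed from each library, it was −0.31, and the median of the Hdac family, −0.42, was the lowest. In the Hdac family 10 of 11 fell and 1 rose (median −0.65), in the Kdm family 11 of 14 tested fell (−0.54) and in the Brd family 7 of 8 fell (−0.56). In the Setd family 5 of 8 fell (−0.41), in the Chd family 7 of 10 fell and 2 rose (−0.41), and in the Smarc family 7 of 13 fell, 1 rose and 5 were not called (−0.20). Differences between families were not tested. Library by library, the median of the members lay between −0.05 and 0.03 around the BCR::ABL1− mean in the 6 BCR::ABL1− libraries and between −0.66 and −0.47 in the 6 BCR::ABL1+ libraries, where the median of all genes tested stayed between −0.01 and 0.04. The BCR::ABL1+ library with the lowest values was replicate 6, which was the lowest of its group for 27 of the 69 members.

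**Figure D2:**
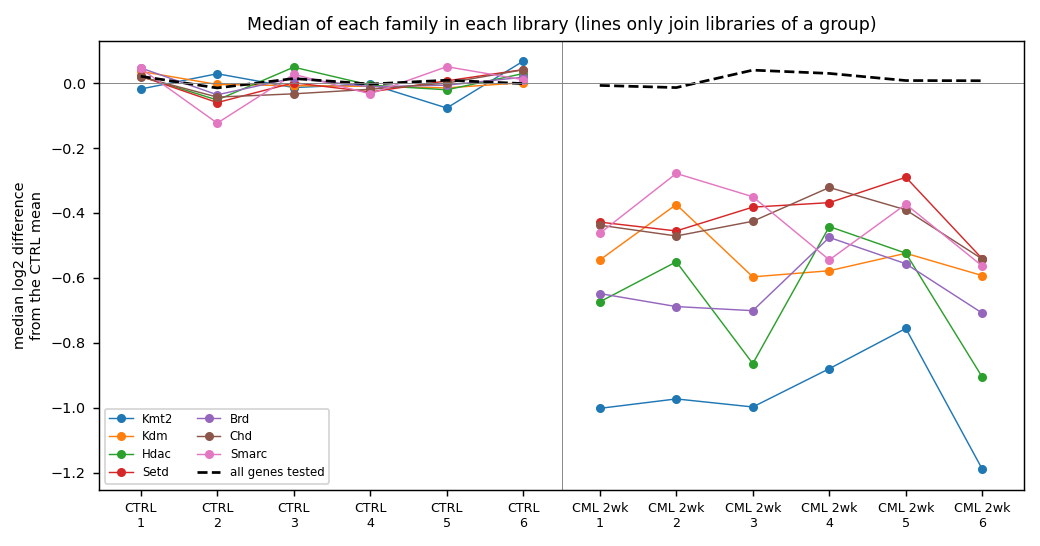
Median log2 difference from the BCR::ABL1− mean (y axis) of each family in each library (x axis; CTRL is BCR::ABL1−, CML 2wk is BCR::ABL1+); the dashed line is the median of all genes tested, and lines only join libraries of a group. All 7 family medians are below the dashed line in each BCR::ABL1+ library, with Kmt2 lowest, from −1.19 to −0.76.

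The members are long, and their median GC content of 51.3% was slightly above the 49.8% of all protein-coding genes tested. Both length and GC content moved with the fold change over all genes. The median length of the longest annotated transcript was 5406 bases for the members and 3381 for all protein-coding genes tested, and 43 of the 69 members were in the top of 4 equal length bins. In that bin the median log2 fold change was −0.65 for the members and −0.32 for the other genes, with 35 of 43 members (81.4%) and 54.8% of the others called lower, whereas the other genes of the bottom bin had a median of 0.23. Across members, the Spearman correlation of log2 fold change with length was −0.29 and with GC content −0.50 (n = 69 genes, which share the same 12 libraries), beside −0.27 and −0.24 across 13063 protein-coding genes. In the fit with the trend removed, 36 members were called lower and 9 higher, with a median of −0.20, while of all 17803 genes tested there 23.7% were called lower and 25.9% higher, with a median of 0.02. Of the members' 52 falls, 35 were called in both fits. Falls called in both numbered 3 of 5 in Kmt2, 6 of 11 in Kdm, 9 of 10 in Hdac, 4 of 5 in Setd, 5 of 7 in Brd, 2 of 7 in Chd and 6 of 7 in Smarc. This fit is given beside most members below as the value with the trend removed, and for the partner genes as counts only. The cause of the trend was not tested.

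**Figure D3:**
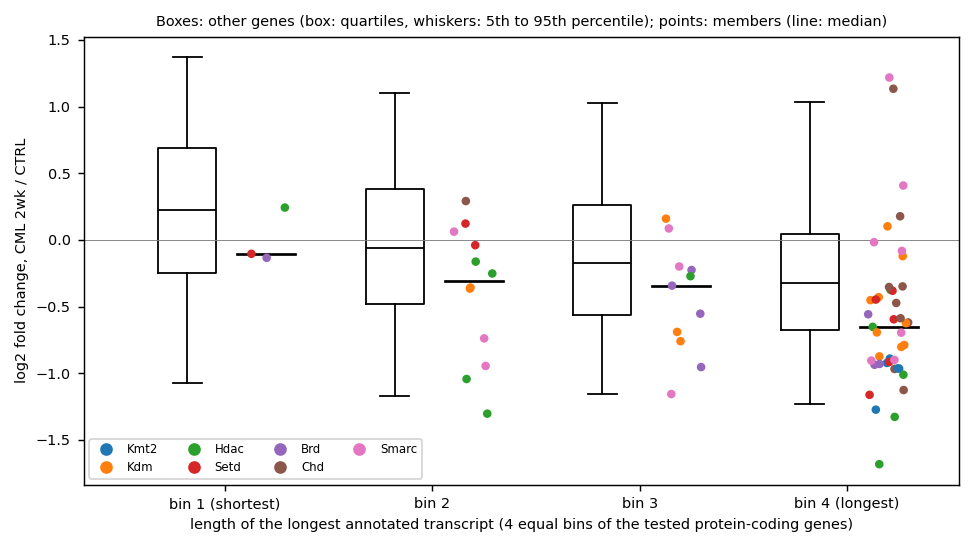
Log2 fold change (y axis, BCR::ABL1+ relative to BCR::ABL1−) of the tested protein-coding genes in 4 equal bins of transcript length (x axis). Boxes are genes other than the members (quartiles, with whiskers from the 5th to the 95th percentile), points are members coloured by family, and their short lines are medians, −0.65 in the longest bin against −0.32 for the others.

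A set of 6 methyltransferases of histone H3 lysine 4 (Kmt2a to Kmt2d, Setd1a and Setd1b) all fell, a grouping made after their values were seen. Their log2 fold changes were between −1.27 and −0.92. Kmt2a, the MLL1 enzyme that keeps Hox genes active in blood stem cells, ran from 462 to 542 CPM (median 506) in BCR::ABL1− and from 183 to 244 CPM (median 206) in BCR::ABL1+. All BCR::ABL1+ libraries were thus under the lowest BCR::ABL1− library, and the fall was 2.42-fold, or −1.27 ± 0.08 (SE; edgeR adjusted p = 2.43e-08) on the log2 scale. Setd1b, a catalytic subunit of a COMPASS complex, ran from 185 to 195 CPM (median 192) in BCR::ABL1− and from 75.2 to 97.6 CPM (median 83.6) in BCR::ABL1+, again without overlap, at −1.16 ± 0.07 (SE; edgeR adjusted p = 2.12e-08). Its counterpart Setd1a fell by 1.89-fold (log2 fold change −0.92; edgeR adjusted p = 1.14e-06), although its exons share bases with another annotated gene on the same strand, Gm49388, so its counts are uncertain. Kmt2d, which with Kmt2c marks enhancers, ran from 601 to 711 CPM (median 654) in BCR::ABL1− and from 285 to 385 CPM (median 341) in BCR::ABL1+, at −0.96 ± 0.08 (SE; edgeR adjusted p = 1.92e-07). Kmt2c (−0.92) and Kmt2b (−0.96) fell to a similar extent, and so did Kmt2e (−0.89; edgeR adjusted p = 5.58e-08), a relative for which no such enzyme activity is established. With the length and GC trend removed, Kmt2a (−0.53; edgeR adjusted p = 1.95e-05), Setd1b (−0.24), Kmt2c (−0.31), Kmt2e (−0.58) and Setd1a (−0.19) were still called lower. Kmt2b (−0.06; edgeR adjusted p = 0.450) and Kmt2d (0.13; 0.0959) were not.

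Promoter sequence was looked at because these genes moved together. RefSeq promoters (GRCm38.p6, 250 bases before to 50 after each start) were found for 52 of the 70 members, 70 promoters in all, since some genes have several starts and their windows can overlap. Each window was searched on both strands for the GC box GGGCGG, the CCAAT box CCAAT, the E-box CACGTG, the STAT-type site TTCNNNGAA and the ETS-type site CCGGAAG. The GC box was in 71.4% of the members' promoters and in 35.7% of all 32851 promoters, the ETS-type site in 15.7% and 8.86%, the STAT-type site in 10% and 8.30%, the CCAAT box in 31.4% and 37.4%, and the E-box in 2.86% and 7.15%. The members' promoters held a median of 27.5 CpG dinucleotides, against 7 for all. The 32851 promoters were taken whether or not their genes were expressed here, so they are not matched to the members. Whether promoters of other expressed genes differ from those of the members was not tested. A GC box was in 37 of 52 promoters of members that fell, in 12 of 14 of members that were not called and in 0 of 3 of members that rose (2 genes), and the median CpG number was 27.5, 28.5 and 24. The promoter of Kmt2a (chr9:44881240-44881539, minus strand), shown as that of the Kmt2 gene that fell most, held 5 GC boxes; capitals mark the motifs, and no motif overlapped another.
Kmt2a promoter: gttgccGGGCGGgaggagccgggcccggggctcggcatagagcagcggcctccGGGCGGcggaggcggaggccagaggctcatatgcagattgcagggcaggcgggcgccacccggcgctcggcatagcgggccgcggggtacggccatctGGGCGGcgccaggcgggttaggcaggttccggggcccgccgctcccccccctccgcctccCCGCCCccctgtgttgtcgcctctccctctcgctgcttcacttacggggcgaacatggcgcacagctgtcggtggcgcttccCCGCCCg

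Of the other Setd genes, Setd2, the methyltransferase of histone H3 lysine 36, ran from 368 to 409 CPM (median 388) in BCR::ABL1− and from 262 to 307 CPM (median 283) in BCR::ABL1+. The groups did not overlap, and the log2 fold change was −0.45 ± 0.06 (SE; edgeR adjusted p = 8.14e-06). Setd7, which methylates lysines of histone H3 and of other proteins, fell by 1.51-fold (−0.60; edgeR adjusted p = 2.87e-06). With the trend removed both were still called lower, at −0.15 and −0.21. Setd5 fell too (−0.38) but not with the trend removed (0.05), and Setd3, Setd4 and Setd6 were not called, at −0.04, 0.12 and −0.10.

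Among the demethylases, 11 fell and 3 were not called. Kdm5b, which removes methyl groups from histone H3 lysine 4, ran from 151 to 163 CPM (median 159) in BCR::ABL1− and from 75 to 107 CPM (median 83.5) in BCR::ABL1+ and fell by 1.83-fold, at −0.87 ± 0.08 (SE; edgeR adjusted p = 3.36e-07). Its paralog Kdm5a did not pass the test: it ran from 238 to 255 CPM (median 247) in BCR::ABL1− and from 195 to 252 CPM (median 228) in BCR::ABL1+, and the groups overlapped. Its log2 fold change was −0.12 ± 0.06 (SE; edgeR adjusted p = 0.0949), and with the trend removed it was called higher, at 0.22. Without BCR::ABL1+ replicate 2 it was called lower, at −0.16. Kdm2a, a demethylase of histone H3 lysine 36 that binds CpG islands, ran from 272 to 293 CPM (median 282) in BCR::ABL1− and from 151 to 182 CPM (median 158) in BCR::ABL1+, at −0.80 ± 0.06 (SE; edgeR adjusted p = 7.97e-08). Kdm2b, its paralog with a role in Polycomb recruitment, fell by 1.54-fold (log2 fold change −0.62). Both were still called with the trend removed (−0.33 and −0.17).

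Kdm6b, a demethylase of histone H3 lysine 27, ran from 65.5 to 78.2 CPM (median 70.0) in BCR::ABL1− and from 35.8 to 54.1 CPM (median 38.6) in BCR::ABL1+, without overlap. Its fall was 1.73-fold (−0.79; edgeR adjusted p = 4.98e-06), but with the trend removed the value was 0.06 and not called. The histone H3 lysine 9 demethylases Kdm3a (−0.45), Kdm3b (−0.69), Kdm4a (−0.69) and Kdm4b (−0.76) all fell without overlap between groups, and of these Kdm3a alone was called with the trend removed (−0.35; edgeR adjusted p = 1.51e-04). The exons of Kdm3b overlap Gm26538 on the opposite strand, so its counts are uncertain. Kdm1a, the LSD1 demethylase, ran from 133 to 147 CPM (median 143) in BCR::ABL1− and from 96 to 123 CPM (median 112) in BCR::ABL1+, a fall of 1.28-fold at −0.36 ± 0.06 (SE; edgeR adjusted p = 1.63e-04) and −0.21 with the trend removed. Kdm1b (0.10) and Kdm4c (0.16) were not called in either fit. Kdm4d was under the filter on low counts, with 0 to 13 counts per library, and was not tested.

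The deacetylases divided into 2 sets by class, a grouping made after their values were seen. The 4 class I enzymes, of which Hdac1, Hdac2 and Hdac3 work in corepressor complexes, had log2 fold changes between −0.27 and 0.24, while the 7 others ran from −1.68 to −0.37. Hdac9, a class IIa enzyme, fell most of all members: it ran from 27.9 to 33.1 CPM (median 31.2) in BCR::ABL1− and from 7.35 to 12.3 CPM (median 9.63) in BCR::ABL1+, 3.21-fold lower at −1.68 ± 0.13 (SE; edgeR adjusted p = 1.11e-07). Hdac7, of the same class and active in lymphoid lineage choice, ran from 123 to 144 CPM (median 134) in BCR::ABL1− and from 43.1 to 64.2 CPM (median 52.9) in BCR::ABL1+, at −1.33 ± 0.10 (SE; edgeR adjusted p = 7.63e-08). Hdac5 fell by 2.01-fold and Hdac11, the only class IV enzyme, by 2.47-fold, from a mean of 10.01 ± 1.12 to 4.06 ± 0.416 CPM (SD, n = 6 each). None of these 4 overlapped between groups. The class IIb genes Hdac6 (−0.65) and Hdac10 (−1.04) were called lower as well. Hdac9 has 2 RefSeq promoters, neither with any of the motifs searched; the one at chr12:34528840-34529139, minus strand, with 3 CpG dinucleotides, is shown as a contrast to that of Kmt2a.
Hdac9 promoter: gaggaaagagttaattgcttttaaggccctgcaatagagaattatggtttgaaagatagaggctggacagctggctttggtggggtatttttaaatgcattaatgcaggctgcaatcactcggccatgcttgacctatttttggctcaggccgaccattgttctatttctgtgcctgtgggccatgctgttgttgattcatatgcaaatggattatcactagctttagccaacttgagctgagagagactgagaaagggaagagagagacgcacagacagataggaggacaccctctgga

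Hdac1 was the one deacetylase called higher: it ran from 101 to 121 CPM (median 114) in BCR::ABL1− and from 115 to 157 CPM (median 132) in BCR::ABL1+, so that the groups overlapped, with 0.24 ± 0.08 (SE; edgeR adjusted p = 0.0183). The call was lost without any filter on low counts, without both replicates numbered 6, in the fit with the run of library numbers and with the trend removed (0.12; edgeR adjusted p = 0.200). Hdac2, its partner in the NuRD, SIN3 and CoREST complexes, was called lower, at −0.16 ± 0.06 (SE; edgeR adjusted p = 0.0242), running from 131 to 155 CPM (median 146) in BCR::ABL1− and from 116 to 136 CPM (median 130.2) in BCR::ABL1+. The groups overlapped, and the call was lost with the replicate number as a block (edgeR adjusted p = 0.0627), with upper-quartile scaling, with the run of library numbers as a term, without BCR::ABL1+ replicates 2 and 4 together and without BCR::ABL1− replicate 3. Hdac3, the enzyme of the NCoR complex, fell by 1.21-fold, at −0.27 ± 0.06 (SE; edgeR adjusted p = 0.00115), without overlap. With the trend removed, Hdac9 (−1.38), Hdac11 (−0.94), Hdac7 (−0.56), Hdac5 (−0.23), Hdac3 (−0.25) and Hdac2 (−0.42) were called lower. The division by class did not hold there, because the class I values then ran from −0.62 to 0.12 and those of class IIa from −1.38 to 0.25; Hdac4 of class IIa went from −0.37 to a called rise of 0.25, and its exons overlap Gm26720 on the opposite strand.

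The BET proteins Brd2 and Brd3, which bind acetylated histones, both fell. Brd2 ran from 347 to 391 CPM (median 366) in BCR::ABL1− and from 173 to 209 CPM (median 190.5) in BCR::ABL1+, at −0.95 ± 0.07 (SE; edgeR adjusted p = 5.83e-08), and Brd3 from 195 to 222 CPM (median 213) in BCR::ABL1− and from 97 to 128 CPM (median 107) in BCR::ABL1+, at −0.94 ± 0.08 (SE; edgeR adjusted p = 1.64e-07). Neither overlapped between groups, and with the trend removed they were still called lower, at −0.32 and −0.53. Brd1 (−0.56), Brd8 (−0.55), Brd9 (−0.34) and Brd7 (−0.23) were called lower, Brd7 with overlapping groups. The call of Brd7 was lost with the replicate block (edgeR adjusted p = 0.0506), with upper-quartile scaling and with the run of library numbers as a term. It was also lost without BCR::ABL1− replicate 6, without BCR::ABL1+ replicate 3 and without both replicates numbered 6. With the trend removed Brd8 (−0.41) and Brd7 (−0.20) were still called lower, and Brd1 (−0.10) and Brd9 (−0.14) were not. Brd3os, at 0.613 to 2.27 CPM in BCR::ABL1+, was not called (−0.13).

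Chd4, the main ATPase of NuRD, had the highest level per length of all members: its CPM per kilobase of exon went from 115 to 58.8. In CPM it ran from 863 to 984 CPM (median 926) in BCR::ABL1− and from 389.7 to 529 CPM (median 488) in BCR::ABL1+, a fall of 1.96-fold at −0.97 ± 0.08 (SE; edgeR adjusted p = 2.59e-07). Chd3, the alternative NuRD ATPase, fell by 2.18-fold, at −1.13 ± 0.10 (SE; edgeR adjusted p = 4.82e-07), and neither gene overlapped between groups. Both were still called with the trend removed (−0.40 and −0.39). Chd6 (−0.62), Chd8 (−0.59) and Chd9 (−0.47) fell too, and Chd1 (−0.35) and Chd2 (−0.35) fell by less. None of these 5 was called lower with the trend removed, and Chd2, whose exons overlap another gene on its strand, was then called higher (0.13).

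Chd7, the remodeler mutated in CHARGE syndrome, went the other way. It ran from 20.7 to 26.6 CPM (median 23.2) in BCR::ABL1− and from 29.9 to 88.7 CPM (median 48.4) in BCR::ABL1+, 2.19-fold higher at 1.13 ± 0.21 (SE; edgeR adjusted p = 3.04e-04). The groups did not overlap, but the BCR::ABL1+ libraries spread widely, with replicate 2 the highest. Over the fits without 1 library the log2 fold change of Chd7 ran from 0.89 to 1.25, the lowest without BCR::ABL1+ replicate 2, and it was called in each. With the trend removed it was 1.78, and in the fit with the run of library numbers 1.47 (edgeR adjusted p = 0.0680). Chd1l, a remodeler recruited to DNA breaks, was also called higher, at 0.29 ± 0.09 (SE; edgeR adjusted p = 0.00919) and 0.44 with the trend removed. It ran from 45.2 to 58.8 CPM (median 52.7) in BCR::ABL1− and from 56 to 76.9 CPM (median 62) in BCR::ABL1+, and the groups overlapped. The call was lost without a filter on low counts and in the fit with the run of library numbers (edgeR adjusted p = 0.472). Chd5, at 1.53 to 3.21 CPM in BCR::ABL1+, was not called (0.18), and was called higher with the trend removed (1.04).

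**Figure D4:**
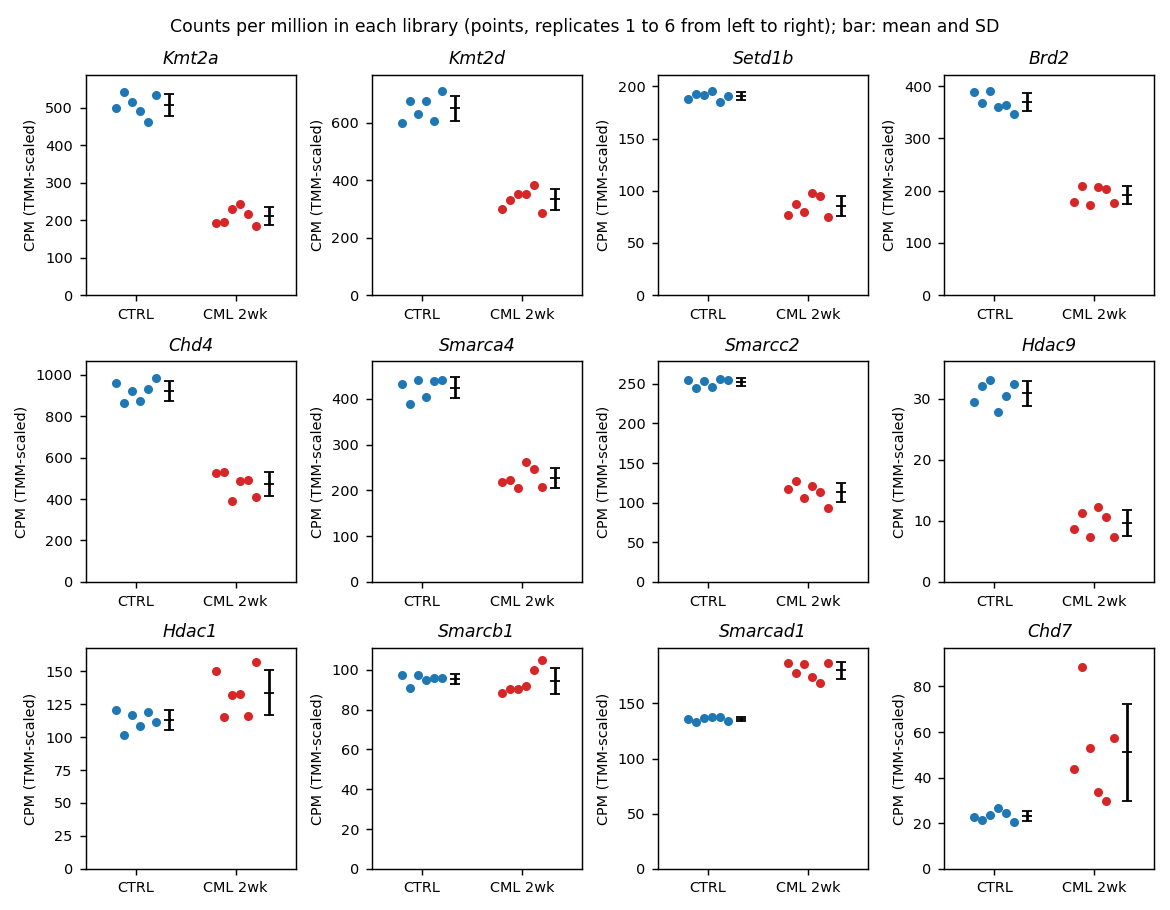
CPM (y axis, from 0) of 12 members in each library, BCR::ABL1− (CTRL, blue) and BCR::ABL1+ (CML 2wk, red), with points for replicates 1 to 6 from left to right and mean and SD beside them. Kmt2a, Kmt2d, Setd1b, Brd2, Chd4, Smarca4, Smarcc2 and Hdac9 do not overlap and are lower in BCR::ABL1+, Smarcad1 and Chd7 do not overlap and are higher, and Hdac1 and Smarcb1 overlap.

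SWI/SNF subunits did not all move together. Of 9 of them, also grouped after their values were seen, 6 fell and 3, Smarcb1, Smarce1 and Smarcd3, were not called. Smarca4 (BRG1), one of the alternative ATPases, ran from 389 to 441 CPM (median 436) in BCR::ABL1− and from 205 to 261 CPM (median 220.5) in BCR::ABL1+, at −0.90 ± 0.07 (SE; edgeR adjusted p = 1.37e-07). Smarca2 (BRM), the other ATPase, fell by 1.87-fold, at −0.90 ± 0.07 (SE; edgeR adjusted p = 1.53e-07). Of the scaffold subunits, Smarcc2 ran from 245 to 256 CPM (median 254) in BCR::ABL1− and from 93.2 to 127 CPM (median 116) in BCR::ABL1+, at −1.16 ± 0.07 (SE; edgeR adjusted p = 2.12e-08), and Smarcc1 fell by 1.62-fold (−0.70; edgeR adjusted p = 2.79e-06). Smarcd1 (−0.95) and Smarcd2 (−0.74) fell as well, and none of these 6 overlapped between groups. All 6 were still called with the trend removed, from −0.69 for Smarcc2 to −0.22 for Smarca4. The 4 promoter motifs other than the GC box were not in the window of Smarcc2 (chr10:128458986-128459285, plus strand), which held 1 GC box and 48 CpG dinucleotides and is shown for the SWI/SNF subunit that fell most.
Smarcc2 promoter: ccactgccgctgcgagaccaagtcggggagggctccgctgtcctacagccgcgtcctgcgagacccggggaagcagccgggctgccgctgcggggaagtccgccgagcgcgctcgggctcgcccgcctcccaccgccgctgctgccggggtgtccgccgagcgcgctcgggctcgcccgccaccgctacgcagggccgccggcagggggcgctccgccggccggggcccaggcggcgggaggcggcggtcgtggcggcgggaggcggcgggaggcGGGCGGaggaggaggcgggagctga

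The core subunit Smarcb1, by contrast, ran from 90.7 to 97.6 CPM (median 96.1) in BCR::ABL1− and from 88.6 to 105 CPM (median 91.2) in BCR::ABL1+, with overlapping groups and a log2 fold change of −0.02 ± 0.05 (SE; edgeR adjusted p = 0.802). Smarce1 ran from 109.9 to 135 CPM (median 124) in BCR::ABL1− and from 115 to 143 CPM (median 127) in BCR::ABL1+, at 0.06 ± 0.07 (SE; edgeR adjusted p = 0.468). Neither was flat with the trend removed, where Smarcb1 was called higher (0.45; edgeR adjusted p = 5.10e-05) and Smarce1 lower (−0.32). These values depend on the length used, that of the longest annotated transcript, 7441 bases for Smarcb1 and 3117 for Smarce1. Which transcript the cells expressed was not examined, so a change of either gene is not established. Smarcd3 was low, at 1.53 to 3.64 CPM in BCR::ABL1+, and not called (0.09), and was called higher with the trend removed (0.66); its exons overlap Chpf2 on the opposite strand. A change of Smarcd3 was measured less precisely, with an SE of 0.22 against 0.05 for Smarcb1.

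The ISWI ATPase Smarca5 (SNF2H) ran from 279 to 343 CPM (median 328) in BCR::ABL1− and from 250.1 to 351 CPM (median 302) in BCR::ABL1+, at −0.08 ± 0.09 (SE; edgeR adjusted p = 0.421) and −0.06 with the trend removed. Per kilobase of exon, Smarca4 went from 65.6 to 35 CPM and Smarca5 from 41.1 to 38.8. The log2 ratio of Smarca4 to Smarca5 per kilobase, a pair chosen after its values were seen, ran from 0.63 to 0.74 in BCR::ABL1− and from −0.42 to 0.21 in BCR::ABL1+. By this uncorrected ratio the level of Smarca4 was above that of Smarca5 in all 6 BCR::ABL1− libraries and below it in 5 of 6 BCR::ABL1+ libraries. Smarca2, the other SWI/SNF ATPase, was not part of this ratio. The ratio was not corrected for GC content, which was 55.9% for Smarca4 and 40.7% for Smarca5. With the trend removed the log2 fold changes lay closer together, at −0.22 for Smarca4 and −0.06 for Smarca5. The order of the 2 levels was not computed there, so its reversal is not established. Smarca1, the other ISWI ATPase, was at 0.343 to 1.02 CPM in BCR::ABL1− and up to 5.52 CPM in BCR::ABL1+ replicate 2, the next BCR::ABL1+ library being at 1.30. It was not called, at 1.22 ± 0.56 (SE; edgeR adjusted p = 0.0753), and without that library the log2 fold change was 0.22. Without BCR::ABL1+ replicate 4 or 6 it was called higher, at 1.41 and 1.39.

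Smarcad1, a remodeler that acts at replication forks and DNA ends, rose in every setting tried. It ran from 133 to 138 CPM (median 136) in BCR::ABL1− and from 169 to 187 CPM (median 182) in BCR::ABL1+, without overlap, 1.33-fold higher at 0.41 ± 0.05 (SE; edgeR adjusted p = 4.16e-06). With the trend removed the value was 0.36 (edgeR adjusted p = 2.05e-05), and in the fit with the run of library numbers 0.48 (0.00968). Smarcal1, a fork remodeler as well, was called lower at −0.20 (edgeR adjusted p = 0.0217) with overlapping groups and at 0.09, not called, with the trend removed. Of the 2 RefSeq promoters of Smarcad1, the one at chr6:65042956-65043255, plus strand, held a STAT-type site and a CCAAT box, in capitals, and no GC box, and is shown for the gene that rose; the other held none of the 5 motifs.
Smarcad1 promoter: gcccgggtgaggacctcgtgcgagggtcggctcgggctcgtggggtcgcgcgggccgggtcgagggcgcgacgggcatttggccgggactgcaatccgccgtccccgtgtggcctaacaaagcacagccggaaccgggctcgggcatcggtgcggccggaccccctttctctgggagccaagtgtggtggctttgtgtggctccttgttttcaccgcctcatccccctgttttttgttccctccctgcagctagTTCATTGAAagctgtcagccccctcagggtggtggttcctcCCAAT

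Because several members are close paralogs, their balance was compared as the log2 ratio of counts in the same library, which no scaling between libraries can alter. Of 19 pairs, 6 had ratios that did not overlap between the groups and 13 had ratios that did. No such share was computed over other pairs of genes, so the count is a description; for the CPM of single genes the shares without overlap were 20.6% (lower) and 17% (higher). The Kdm5a to Kdm5b ratio ran from 0.55 to 0.73 in BCR::ABL1− and from 1.24 to 1.52 in BCR::ABL1+, a difference of 0.76 and the largest of the 6. The ratio of Smarcc1 to Smarcc2 went from 1.07 ± 0.09 to 1.54 ± 0.15 (mean ± SD, n = 6 libraries each), and that of Hdac1 to Hdac2 from −0.35 ± 0.05 to 0.05 ± 0.16 (mean ± SD, n = 6 libraries each). Hdac2 thus had more counts than Hdac1 in every BCR::ABL1− library, while in BCR::ABL1+ the order differed between libraries. Kdm3a to Kdm3b was also higher (0.24), whereas Kdm1a to Kdm1b (−0.46) and Kmt2a to Kmt2b (−0.30) were lower. The ratio of Smarca2 to Smarca4 ran from −1.27 to −0.85 in BCR::ABL1− and from −1.27 to −0.87 in BCR::ABL1+, a difference of 0.01, and Kmt2c to Kmt2d (0.04) and Chd1 to Chd2 (0.00) also overlapped. Transcript length and GC differ between paralogs, and the ratios were not corrected for them. With the trend removed the log2 fold changes were 0.22 for Kdm5a and −0.42 for Kdm5b, 0.12 for Hdac1 and −0.42 for Hdac2, −0.39 for Smarcc1 and −0.69 for Smarcc2, −0.21 for Kdm1a and 0.17 for Kdm1b, and −0.53 for Kmt2a and −0.06 for Kmt2b, in the same order as the ratios. For Kdm3a (−0.35) and Kdm3b (−0.13) the order was the opposite.

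**Figure D5:**
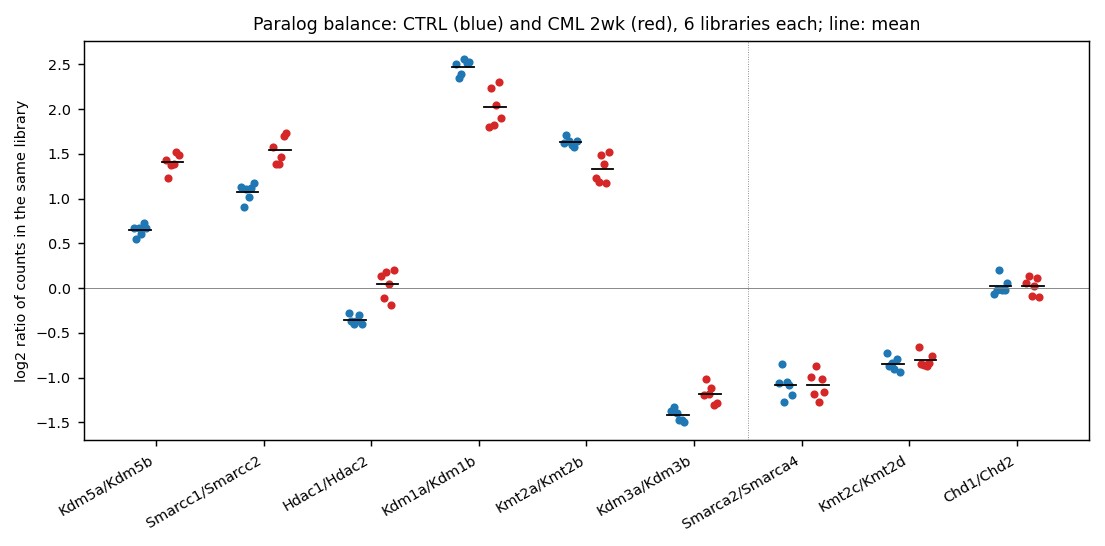
Log2 ratio of the counts of paralogous members in the same library (y axis) for 9 of the 19 pairs (x axis), BCR::ABL1− in blue and BCR::ABL1+ in red, 6 libraries each, with lines at the means. The 6 pairs left of the dotted line do not overlap between groups, and the 3 to its right do.

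The partners of the members were counted from lists of complex subunits and other chromatin enzymes. Of 106 such genes 103 were tested, and 72 were lower, 15 higher and 16 not called, with a median log2 fold change of −0.45. The 69.9% called lower stood beside 29% of all genes tested and 38.5% of the protein-coding ones, and the 14.6% called higher beside 30.6% of all genes tested. With the trend removed 47 partners were lower and 15 higher, where 23.7% and 25.9% of all genes were. The values of single partner genes below are from the fit in which the trend was not removed. In the SWI/SNF list 12 of 15 tested fell and 1 rose: Arid1a, a DNA-binding subunit of BAF, ran from 598 to 660.0 CPM in BCR::ABL1− and from 266 to 322 CPM in BCR::ABL1+, at −1.08 ± 0.06 (SE), while Actl6a, an actin-related subunit, rose (0.46; edgeR adjusted p = 4.58e-05). In the NuRD list 6 of 10 fell and 2 rose, among them the histone chaperone Rbbp4 (0.71; edgeR adjusted p = 1.76e-05), which ran from 331 to 412 CPM in BCR::ABL1− and from 501 to 757 CPM in BCR::ABL1+. In the list of COMPASS and MLL partners 8 of 11 tested fell, with Men1, the menin that tethers Kmt2a, at −0.76, and 2 rose. Dpy30, the small subunit shared by all COMPASS complexes, ran from 32.1 to 39.8 CPM in BCR::ABL1− and from 71.4 to 134 CPM in BCR::ABL1+ and rose, at 1.49 ± 0.13 (SE).

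Among the HDAC corepressors 12 of 17 fell and 2 rose, with Ncor1 at −0.75 and Sin3a at −0.69. Of the ISWI partners 6 of 9 fell, with Bptf at −0.99, and 2 rose, with Chrac1 at 0.67. In the INO80, SRCAP and TIP60 list 7 of 14 fell, with Ep400 at −0.68, and 3 rose, with Ruvbl2 at 0.56. Of 10 acetyltransferases 8 fell, with Kat6a at −1.04, Crebbp at −0.86 and Ep300 at −0.85, and 2 rose, with Hat1, which acetylates new histone H4, at 0.78. Of 17 other lysine methyltransferases 13 fell, with Dot1l, the methyltransferase of histone H3 lysine 79, at −1.06, and 1 rose.

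Spread between libraries was larger in BCR::ABL1+. Over the 69 members the median coefficient of variation was 5.13% for BCR::ABL1− libraries against 10.6% for BCR::ABL1+ libraries, and it was larger in BCR::ABL1+ for 67 of them. Markers of other cells differed between the groups too: all 7 erythroid markers were lower (summed level 96.2 to 179.9 CPM in BCR::ABL1− and 10.2 to 42.3 in BCR::ABL1+), all 4 megakaryocyte markers tested were lower (275.4 to 321 and 90.5 to 252 CPM), and 4 of 6 mast cell and basophil markers were higher (75.6 to 155 and 256 to 1285 CPM). Of 7 LSK markers 6 were lower (1960.2 to 2267 and 1089 to 1535 CPM), and of 10 proliferation genes 5 were lower and 3 higher (3797 to 4578 and 2424 to 3109 CPM). Of 7 neutrophil markers 3 were higher and 3 lower, of 6 monocyte markers 1 and 1, of 6 T and NK cell markers 2 and 2, of 6 B cell markers 2 were lower, and of 5 stromal markers tested 2 were higher. None of these markers was at 0 in all libraries, and their part in the lower levels of the chromatin genes was not tested. Without BCR::ABL1+ replicates 2 and 4, which had the highest stromal and mast cell sums and the highest erythroid and B cell sums respectively, 52 members were lower and 5 higher. Within the run of library numbers that holds replicate 6 of both groups, 58 of 69 members were lower in BCR::ABL1+. Beside them, 49.8% of all genes tested and 7311 of the 13066 protein-coding ones were lower. In this pair, BCR::ABL1− replicate 6 was the highest of its group for 20 of the 69 members. BCR::ABL1+ replicate 6 was the lowest of its group for 27 of them. With the run as a term 43 were called lower and 1, Smarcad1, higher, beside 13.4% and 11.8% of all genes tested.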

How the data were processed

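Reads of 12 libraries, prepared with the Kapa RNA HyperPrep kit, were counted on genes by the authors, who deposited raw counts per Ensembl gene without normalization. The submitters' processing notes name FastQC 0.11.9, fastp 0.23.2, STAR 2.7.10a, featureCounts 2.0.1 and the mouse builds mm39 and GRCm39, whereas the paper's bulk RNA-seq methods name other trimming and alignment tools and a human genome; which were used for these counts cannot be settled here. The strand setting, the treatment of reads mapping to several places and the annotation release are not given in the sources used here, so counts of genes whose exons overlap another gene (Setd1a, Chd2, Smarcd3, Hdac4, Kdm3b and Kmt2e among them), of Smarca5 and Smarce1, which have pseudogenes, and of close paralogs are uncertain. Human BCR::ABL1 was not counted.

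Symbols and transcript lengths came from GENCODE M21 (GRCm38) by Ensembl identifier, with 52125 identifiers matched and 4623 not, and 0 entries named no gene. The members, families and lists were chosen with earlier results of these data known. The quasi-likelihood test of edgeR 4.0.16 in R 4.3.3 was fitted to the 18438 genes kept by filterByExpr, with TMM scaling, Benjamini-Hochberg adjustment over all of them and a threshold of 0.05, and DESeq2 1.42.0 was an alternative. Ratios of paralogs had 0.5 count added. Summaries and plots used Python 3.11.15, numpy 2.4.6, pandas 2.3.3 and matplotlib 3.10.9. Named are, in each direction, up to 3 members a family that changed most among those called, without overlap and with a mean log2 CPM of at least 1; a list of leading genes and paralog pairs; and members under the filter. Other members appear as examples chosen after their values were seen.

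The other alternatives were upper-quartile factors, DESeq2 size factors, other filters, an adjusted p under 0.01, leaving out libraries, the replicate number as a block and the run of library numbers as a term. Removal of the length and GC trend, fitted in each library over all genes and entered as an offset, was chosen after seeing the data. The fits were tried on simulated data with no trend or with a trend over length only. Removal of a trend over GC content was therefore not tested. The same-numbered libraries of the groups did not deviate together, so numbers do not pair them. No pair of libraries differed by less than the sampling noise (lowest chi-square per degree of freedom 4.07). No label ties a library to 1 recipient, so p-values measure the spread between libraries, which may be technical. The 3 sex-linked demethylases were not analysed here, and the values of 1 member are not reported here, although it is part of the counts and medians.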

Additional observations from a re-analysis of the deposited data

Results flagged for a closer look

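A library was singled out where its gap to the nearest other library of its group, divided by the range of the group, was above Dixon's 95% critical value for 6 libraries. Over the CPM of the 70 members and the log2 ratios of the 19 paralog pairs, 178 groups of 6 were examined and 9 met this, while chance flags about 1 in 20 groups, or 8.9 here. Among the 9, 3 came from BCR::ABL1+ replicate 2. Kdm6b was highest there at 54.1 CPM, with the next library at 41.9. Smarca1 was at 5.52 CPM in the same library and at 1.30 in the next, and the log2 ratio of Smarca1 to Smarca5 was −5.92 there and −8.04 in the next. Kdm2b was highest in BCR::ABL1+ replicate 5 at 84.7 CPM, with the next library at 69.5. Kdm4d, with few counts everywhere, was at 0.796 CPM in BCR::ABL1+ replicate 3 and at 0.227 in the next. In BCR::ABL1+ replicate 6 Hdac4 was highest at 68.8 CPM, with the next library at 58.7, and Smarcal1 at 61.3 CPM, with the next at 50.4. Setd6 was highest in BCR::ABL1− replicate 6, at 18.4 CPM against 16.0 in the next library. In BCR::ABL1− the log2 ratio of Setd1a to Setd1b was lowest in replicate 2, at −1.79, with the next library at −1.64. Of these genes, Kdm6b and Kdm2b were called lower without overlap with these libraries included.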

How the results depend on the processing

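The number of members called lower was 48 to 53 under the other scalings, DESeq2's test, the other filters and an adjusted p under 0.01, 51 to 53 without any 1 library and 50 with the replicate block; the number called higher was 4 to 5 without any 1 library. With upper-quartile factors the median of all genes tested was 0.14 and that of the Chd family −0.34. Without a filter 2 members, Chd7 and Smarcad1, were called higher. With the run of library numbers as a term, 43 members were called lower and 1 higher, and the medians were −1.32 (Kmt2), −0.62 (Kdm), −0.96 (Hdac), −0.60 (Setd), −0.75 (Brd), −0.58 (Chd) and −0.67 (Smarc), with 8 partner genes called higher; Chd1l, Chd7 and Hdac1 lost their calls as higher there, and Brd7, Hdac2, Hdac3, Hdac4, Hdac8, Kdm4a, Kdm7a, Kdm8 and Smarcal1 as lower. With the length and GC trend removed, 36 members were called lower and 9 higher, with 47 partner genes lower. The medians in that fit were −0.31 (Kmt2), −0.18 (Kdm), −0.42 (Hdac), −0.15 (Setd), −0.26 (Brd), −0.046 (Chd) and −0.22 (Smarc). In that fit 9 members changed sign, to 0.13 (Chd2), 0.25 (Hdac4), 0.22 (Kdm5a), 0.058 (Kdm6b), 0.13 (Kmt2d), 0.05 (Setd5), 0.09 (Smarcal1), 0.45 (Smarcb1) and −0.32 (Smarce1). Smarca1 was called higher without BCR::ABL1+ replicate 4 (1.41) or 6 (1.39), and Kdm5a lower without a filter (−0.19) or without BCR::ABL1+ replicate 2 (−0.16).

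Over the fits without 1 library the family medians ran from −1.01 to −0.91 (Kmt2), −0.57 to −0.53 (Kdm), −0.70 to −0.61 (Hdac), −0.44 to −0.40 (Setd), −0.60 to −0.54 (Brd), −0.43 to −0.41 (Chd) and −0.27 to −0.17 (Smarc). The causes of these differences were not tested, apart from the run term, in which the difference rests on 1 library a group by construction, replicate 6. That BCR::ABL1− library had the highest summed level of the members in its group, and that BCR::ABL1+ library the lowest. Same-numbered libraries correlated between −0.125 and 0.0679 in their deviations, so the replicate block is not known to be a pairing. Under the block Hdac2 and Brd7 lost their calls. Depth limits Kdm4d, at 0 to 13 counts, and a count of 0 allows up to 3 counts, or 0.0725 to 0.184 CPM; such limits cover counting error only.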
